A study of Mus musculus with 4 samples.

Results

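The nuclear genes for subunits of oxidative phosphorylation were followed through the 4 RNA-seq libraries of a study on CT26 cells, a line grown from a colon carcinoma of the mouse. Members were chosen by symbol: Ndufa, Ndufb, Ndufc, Ndufs and Ndufv genes with a number, Sdha to Sdhd, Uqcr genes, Cox4 to Cox8 genes, Atp5 genes, and Cyc1 and Cycs, without pseudogenes or assembly factors. Of 86 such symbols, 80 reached 1 FPKM (fragments counted per kilobase of transcript, scaled to library depth) in at least 2 libraries and are the members described here, among 11955 genes that did so and 55335 genes in all. They comprise 36 genes of complex I, 4 of complex II, 9 of complex III, 13 of complex IV, 17 of complex V and cytochrome c. The rule uses symbols and this minimum, not differences between libraries. Positions below are from GENCODE release M21 on GRCm38. The complexes were split by symbol, so Ndufa4, now assigned to complex IV, is counted with complex I, and Atp5s and Atp5sl, whose products are not stable subunits of the enzyme, are counted with complex V.

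The libraries titled CT26_102 and CT26_CTL carry the labels FOSL2-WT and PBS. The libraries titled CT26_102_R and CT26_CTL_R carry the labels FOSL2-KO and Chemoradiotherapy. Genotype and treatment therefore change together and cannot be told apart, and no dose or time is labelled. All libraries come from CT26 cells in culture, and the labels do not explain the stem CT26_102 or the suffix R. The design text speaks of knockdown rather than knockout cells. Each title is 1 library, so suffix R was compared with no suffix as 2 against 2 libraries with the stem as a second term, and the stems were compared in the same way with the suffix as a second term. No label tells whether the libraries came from separately grown cells. With 1 library per combination of stem and suffix, no scatter between replicates was available. The residual of the fit is how far the suffix difference disagrees between the stems, and it serves both comparisons. It was combined with a spread estimated over all tested genes (limma, 4.01 prior degrees of freedom). Each p-value therefore reflects these 4 libraries alone, and that disagreement may be technical.

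Fosl2 itself did not follow the genotype label: its FPKM was 9.35, 15.97, 12.7 and 19.2 in the order CT26_102, CT26_102_R, CT26_CTL, CT26_CTL_R, which is kept for every list of 4 values here. Both libraries labelled FOSL2-KO were higher than both others, with a log2 difference of 0.64 ± 0.13 (SE, limma, adjusted p = 0.0444, or 0.464 without the stem in the fit), so directions below belong to the libraries carrying that label and not to a verified loss of the gene. Estimated depth was between 21.61 M and 26.37 M reads per library. The cell line was checked against a few markers: of 5 epithelial genes only Krt8 and Krt18 reached 1 FPKM, Epcam was listed at 0 in all 4 libraries, and none of 4 colon genes reached 1 FPKM, whereas all 3 mesenchymal genes did, led by Vim. With suffix R, Vim was lower in both stems (782, 535, 639.9 and 503 FPKM) and Krt18 higher in both (34.7, 39.6, 42.5 and 76.5). Krt8 (3.82, 2.74, 0.461 and 0.652) was lower with suffix R in stem CT26_102 and higher in stem CT26_CTL, where it stayed under 1 FPKM. No leukocyte or endothelial marker reached 1 FPKM. Among fibroblast markers, also known from mesenchymal tumour cells, the summed level of Col1a1, Col1a2 and Pdgfra was lower with suffix R in both stems (170, 81.0, 107 and 75.8 FPKM), and the part of these genes in the results below was not tested.

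Oxidative phosphorylation moves electrons from NADH and succinate through complexes I and II to ubiquinone, on through complex III and the small soluble carrier cytochrome c to complex IV, where oxygen is reduced, and the proton gradient built on the way drives ATP synthesis by complex V. Complexes I, III, IV and V combine subunits encoded in the nucleus with a few catalytic subunits encoded by mitochondrial DNA, while complex II is wholly nuclear. The catalytic core subunits carry the flavins, iron-sulfur clusters and hemes or the nucleotide-binding sites, and the many small accessory subunits serve assembly and stability. Nuclear respiratory factor NRF1, the ETS factor GABP, YY1 and coactivators of the PGC-1 family are known regulators of these nuclear genes.

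The members were strongly expressed. The median member stood at 48.6, 56.7, 61.0 and 74.3 FPKM, against 6.95, 7.15, 6.58 and 6.40 for all tested genes. Together they took 1.53%, 1.74%, 1.75% and 2.04% of all FPKM, lowest in CT26_102 and highest in CT26_CTL_R. Mean levels over the 4 libraries exceeded 100 FPKM for 20 members and stayed under 10 FPKM for 7. In 56 of 80 members CT26_102 was the lowest library, and in 52 CT26_CTL_R was the highest, so the labelled groups overlap for many members whose values differ within each stem.

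**Figure D1:**
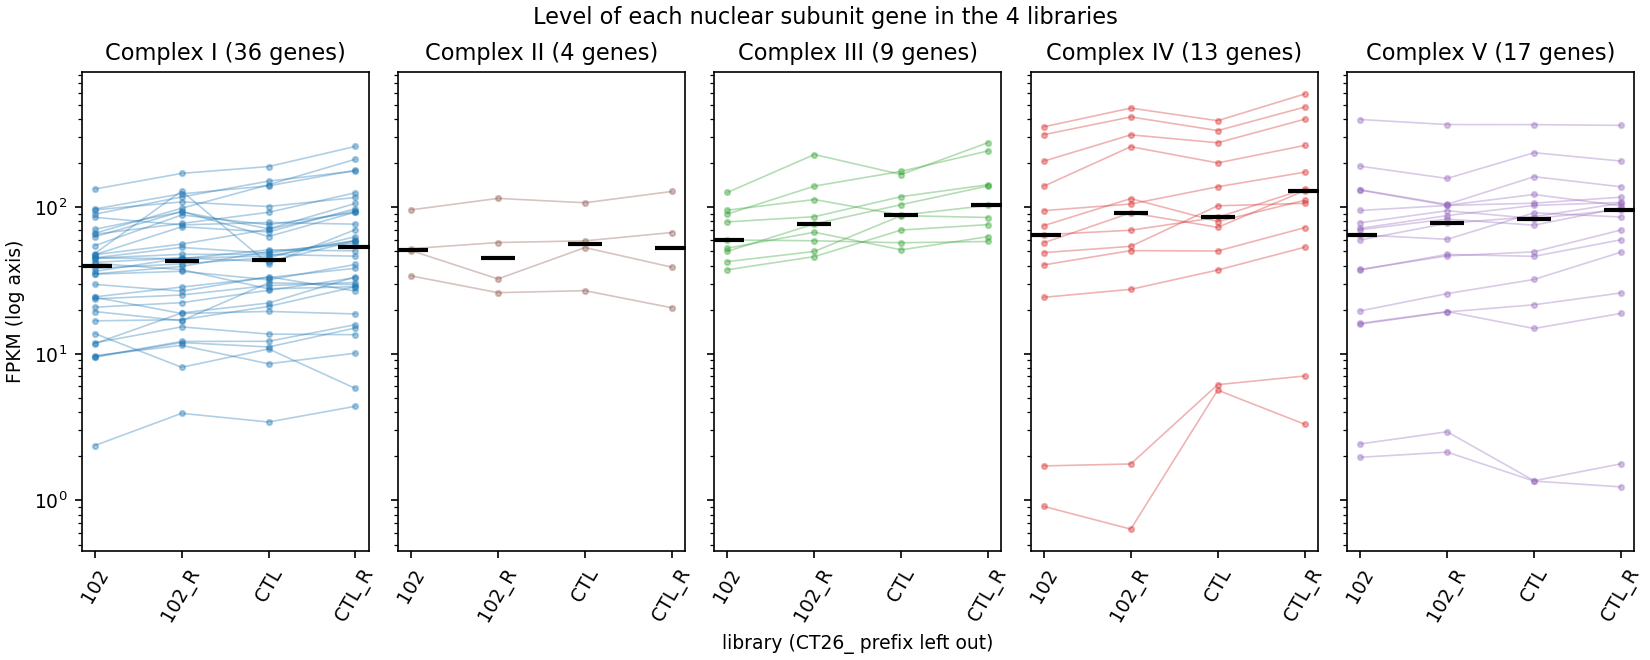
FPKM of each member (log axis) in the 4 libraries, 1 panel per complex; thin lines join the values of 1 gene and black bars are the median of the complex. The median bar of complex IV goes from 64.9 in CT26_102 to 130 in CT26_CTL_R, while complex II lies between 44.9 and 56.0 in all 4 libraries.

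The level was uneven within each complex. In complex I the highest member was Ndufa2, an accessory subunit, at 133, 170.0, 189 and 259.7 FPKM. Its lowest was Ndufb2, an accessory subunit of the membrane arm, at 2.37, 3.93, 3.43 and 4.39, a gene whose annotated exons overlap those of Braf. In all, 28 members share exon bases with another gene, 18 of them with one whose mean is at least 1 FPKM. In complex II, Sdhd, a membrane anchor, was highest at 95.9, 115, 107 and 128 and the other anchor gene, Sdhc, lowest at 33.98, 26.1, 26.9 and 20.6. By the mean of the 4 libraries, which sets the order in this paragraph, Uqcr10 was highest in complex III and Uqcrfs1, the Rieske iron-sulfur protein, lowest at 37.4, 46.00, 69.8 and 76.1. In complex IV the range ran from Cox6a1 at 353, 474, 389 and 591 down to its muscle-type paralog Cox6a2 at 0.9096, 0.637, 5.65 and 3.31. In complex V it ran from Atp5b, the catalytic beta subunit and the highest of all members in CT26_102, at 396, 366, 366 and 361, to Atp5s at 1.97, 2.13, 1.35 and 1.24.

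With suffix R, 14 of 80 members rose, 1 fell and 65 did not pass the test (limma with both terms, adjusted p of at most 0.05 over 11955 genes). The background share of all tested genes was 7.57% for a rise and 5.32% for a fall, against 17.5% and 1.25% of the members. The median member differed by 0.25 on the log2 scale, against 0.00 for all tested genes, and by 0.24 within stem CT26_102 and 0.27 within stem CT26_CTL. Within both stems 60 members were higher with suffix R (39.1% of all tested genes were), 14 were lower (38.2%) and 6 went opposite ways. Of the members, 28 had both suffix R libraries above both others (22.3% of all tested genes) and 7 had both below (21.1%).

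These calls lie close to the threshold, with adjusted p from 0.0228 to 0.0498, and rest on 1 residual degree of freedom and limma's shared estimate of the spread. Without the stem in the fit no member passed (smallest adjusted p among members 0.449, and 1 gene of 11955, 0.00836%). There 6 of 80 members had an unadjusted p under 0.05, against 1281 of 11955 tested genes. None passed without the expression filter either, where the unadjusted p was under 0.05 for 40 members and for 4937 of 27670 genes. The fitted differences of the members are the same in these fits. Of the 15 members past the threshold, 5 passed under each of 7 other settings of scaling, filter, pseudocount and trend: Ndufb6, Cycs, Uqcr10, Cox7a2 and Ndufs1. These settings leave out the fits without the stem or the expression filter and the removal of the coding length trend. With that trend removed 0 of the 15 passed, against 365 higher and 183 lower of 10256 tested genes, so no member passed under every alternative. Of all genes past the threshold 58.7% were higher, against 48.1% with upper-quartile rescaling and 41.7% with rescaling to the sum without mitochondrial genes. The members past it were then 14 higher and 2 lower, and 7 higher and 2 lower. Of all 11955 tested genes, 937 were higher and 1011 lower, and 756 higher and 1059 lower.

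**Figure D2:**
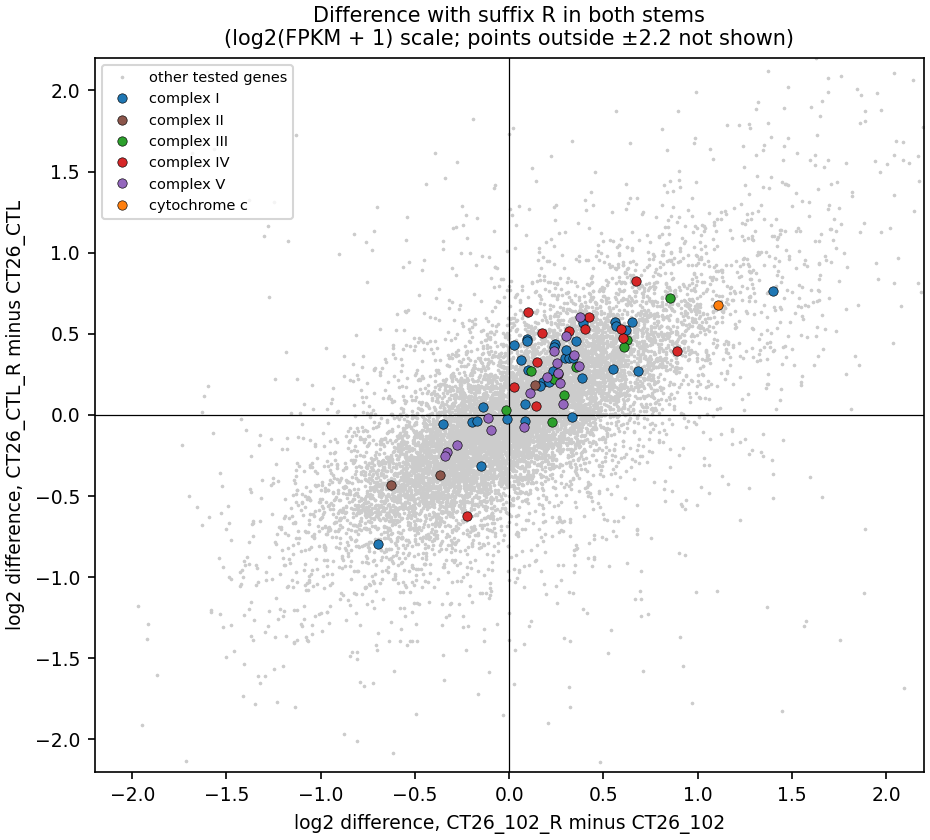
Log2 difference with suffix R in stem CT26_102 (horizontal) against that in stem CT26_CTL (vertical), each from 1 library against 1, on the log2(FPKM + 1) scale; coloured points are members by complex and grey points the other tested genes. Most members, 60 of 80, lie in the upper right quadrant, with Ndufb6, Cycs and Uqcr10 farthest out and Ndufs1 at the lower left.

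Complex I, the NADH dehydrogenase, split by subunit class. Of its 29 accessory genes 5 rose and 0 fell, with a median of 0.32. Of its 7 core genes 0 rose and 1 fell, with a median of -0.10, and 4 of the 7 had both suffix R libraries below both others. The summed FPKM of the accessory genes was 1304, 1703, 1703 and 2220, a ratio of 1.31 with suffix R in stem CT26_102 and 1.30 in stem CT26_CTL. That of the core genes was 250, 229, 247 and 246. No test of the difference between both classes was made.

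Ndufb6 (ENSMUSG00000071014, chromosome 4, 40270591 to 40279421, minus strand), an accessory subunit of the membrane arm, was at 48.2, 129, 40.9 and 70.3 FPKM. Both suffix R libraries exceeded both others, by 2.67 times in stem CT26_102 and 1.72 times in stem CT26_CTL, a log2 difference of 1.08 ± 0.18 (SE, n = 2 libraries per group, limma adjusted p = 0.0332). This was the largest rise among the members. Ndufs4, an accessory subunit needed for a stable NADH-binding module and a gene mutated in human Leigh syndrome, was at 11.7, 18.99, 22.2 and 33.5 (0.61 ± 0.12, adjusted p = 0.0441), higher with suffix R within each stem but overlapping between groups. Ndufs5 was at 47.4, 73.5, 67.8 and 97.8 (0.57 ± 0.11, adjusted p = 0.0416) with no overlap. Ndufa1, a small X-linked subunit of the membrane arm, was at 66.4, 98.3, 142 and 212 (0.57 ± 0.10, adjusted p = 0.0369), and its groups overlapped because the stems stand far apart. Ndufa12, an accessory subunit of the peripheral arm, was at 62.8, 93.5, 63.1 and 92.7 (0.56 ± 0.11, adjusted p = 0.0413), nearly the same in both stems.

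The core genes showed another pattern. Ndufs1 (ENSMUSG00000025968, chromosome 1, 63143596 to 63176833, minus strand), the largest subunit of the peripheral arm and carrier of several iron-sulfur clusters, fell to 0.589 and 0.537 times its level without the suffix. Its FPKM was 13.7, 8.09, 10.8 and 5.800, with no overlap and a log2 difference of -0.75 ± 0.13 (adjusted p = 0.0356). Exons of Ndufs1 overlap those of Eef1b2 on the opposite strand, a translation factor gene at 188, 172, 221 and 202 FPKM, and since the strandedness of the counting is not given in the sources used here, reads of both genes may not be fully separated. Eef1b2 differed by -0.13 ± 0.09 (adjusted p = 0.364). Ndufv1, which binds NADH and the flavin, was at 24.3, 18.8, 19.4 and 18.7, and Ndufs3 at 29.7, 26.7, 33.5 and 26.8. Both were lower in both suffix R libraries and did not pass. Ndufs8, a core iron-sulfur subunit, was at 41.4, 37.5, 27.7 and 28.7 and went opposite ways in the stems. Ndufs7 and Ndufv2, core iron-sulfur subunits too, were higher with suffix R in both stems, at 20.8, 22.3, 27.1 and 33.00 and at 35.1, 39.4, 49.9 and 56.7, and did not pass.

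The other accessory genes of complex I did not pass, and most were higher within both stems. Ndufb3 was at 70.7, 93.1, 71.3 and 106 FPKM and Ndufc2 at 54.6, 88.5, 75.99 and 92.02, both with no overlap between groups. Ndufb9 was at 97.3, 123, 139.8 and 179, Ndufb11 at 65.4, 77.4, 92.2 and 125 and Ndufa8 at 89.6, 117, 151 and 176, each higher with suffix R within its stem but overlapping between groups. Ndufs6, which carries a zinc site of the peripheral arm, was at 47.4, 55.99, 70.7 and 94.7 and Ndufa5 at 36.5, 44.9, 46.4 and 59.5. Some stayed nearly level: Ndufb10 was at 45.00, 44.6, 51.2 and 50.4 and Ndufa9, at the junction of both arms, at 44.9, 47.7, 47.6 and 46.3. Ndufa6, which holds the mitochondrial acyl carrier protein in place, was at 19.4, 16.8, 30.5 and 29.6, lower within both stems. That carrier itself, Ndufab1, lies outside the symbol rule and was at 7.59, 12.9, 9.73 and 12.8, which did not pass.

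In complex II, succinate dehydrogenase, 0 of 4 genes rose or fell and the genes pointed in opposite directions. Sdha, the flavoprotein that oxidizes succinate, was at 50.6, 32.4, 53.02 and 38.97 FPKM, lower in both suffix R libraries (adjusted p = 0.0539). Sdhb, the iron-sulfur subunit, was at 52.1, 57.4, 58.9 and 67.1 and overlapped. Of the membrane anchors, Sdhc was lower in both suffix R libraries and Sdhd higher in both. The summed FPKM of the complex was 233, 231, 246 and 255.

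In complex III, the cytochrome bc1 complex, 3 of 9 genes rose, 0 fell, and all 9 had a positive difference in the fit, as had 6021 of 11955 tested genes. Within both stems 7 of the 9 were higher, and Uqcrc2 and Cyc1 went opposite ways. Uqcr10 (ENSMUSG00000059534, chromosome 11, 4701973 to 4704342, minus strand), a small subunit of 64 residues, was at 126, 229, 167 and 276 FPKM, which is 1.81 and 1.65 times higher with suffix R (0.79 ± 0.10, adjusted p = 0.0228). Uqcrb, which touches the quinone site region, was at 89.9, 139, 176 and 242 (0.54 ± 0.11, adjusted p = 0.0413), and Uqcrq, a small membrane subunit, at 50.03, 76.9, 104 and 139.6 (0.52 ± 0.11, adjusted p = 0.0498). Both rose within each stem while the groups overlapped. The large core genes Uqcrc1 and Uqcrc2 were at 52.5, 67.5, 51.2 and 62.9 and at 59.8, 59.02, 57.2 and 58.3, and the hinge protein gene Uqcrh at 95.5, 113, 88.1 and 103. The catalytic heme subunit Cyc1 was at 42.5, 49.9, 87.6 and 85.01, with no common direction in the stems.

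Cytochrome c, Cycs (ENSMUSG00000063694, chromosome 6, 50562563 to 50566538, minus strand), carries electrons from complex III to complex IV and is also released from mitochondria in apoptosis. It was at 51.9, 113, 94.8 and 152 FPKM, 2.18 times higher with suffix R in stem CT26_102 and 1.61 times in stem CT26_CTL (0.89 ± 0.14, adjusted p = 0.0312). Both suffix R libraries lay above both others.

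Complex IV, cytochrome c oxidase, had the highest median of the multi-gene complexes, 0.42, with 5 of 13 genes higher past the threshold and 0 lower. Within both stems 12 of the 13 were higher. Cox7a2 (ENSMUSG00000032330, chromosome 9, 79755361 to 79759878, minus strand), the widely expressed form of subunit VIIa, was at 57.2, 91.6, 72.8 and 129.6 FPKM (0.75 ± 0.11, adjusted p = 0.0291). Cox8a, the widely expressed form of subunit VIII, was at 206, 311, 275 and 398 (0.56 ± 0.09, adjusted p = 0.0317). Cox5b was at 74.9, 114, 79.7 and 111 (0.54 ± 0.11, adjusted p = 0.0436). Cox6a1 (0.51 ± 0.09, adjusted p = 0.0369) and Cox6b1, at 312, 413, 333 and 481 (0.47 ± 0.09, adjusted p = 0.0413), were among the most abundant members. All of these 5 genes had both suffix R libraries above both others. Cox4i1, which takes part in the regulation of the enzyme by ATP, was at 139, 259, 200.4 and 264 and just missed the threshold (adjusted p = 0.0516). Cox5a was at 40.4, 50.5, 50.3 and 72.5 and Cox6c at 24.3, 27.5, 37.3 and 53.3, both higher within each stem without passing. Cox7c, at 48.98, 54.1, 102.2 and 106, and Cox7b, at 94.7, 105, 138 and 173, were likewise higher within each stem without passing.

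**Figure D3:**
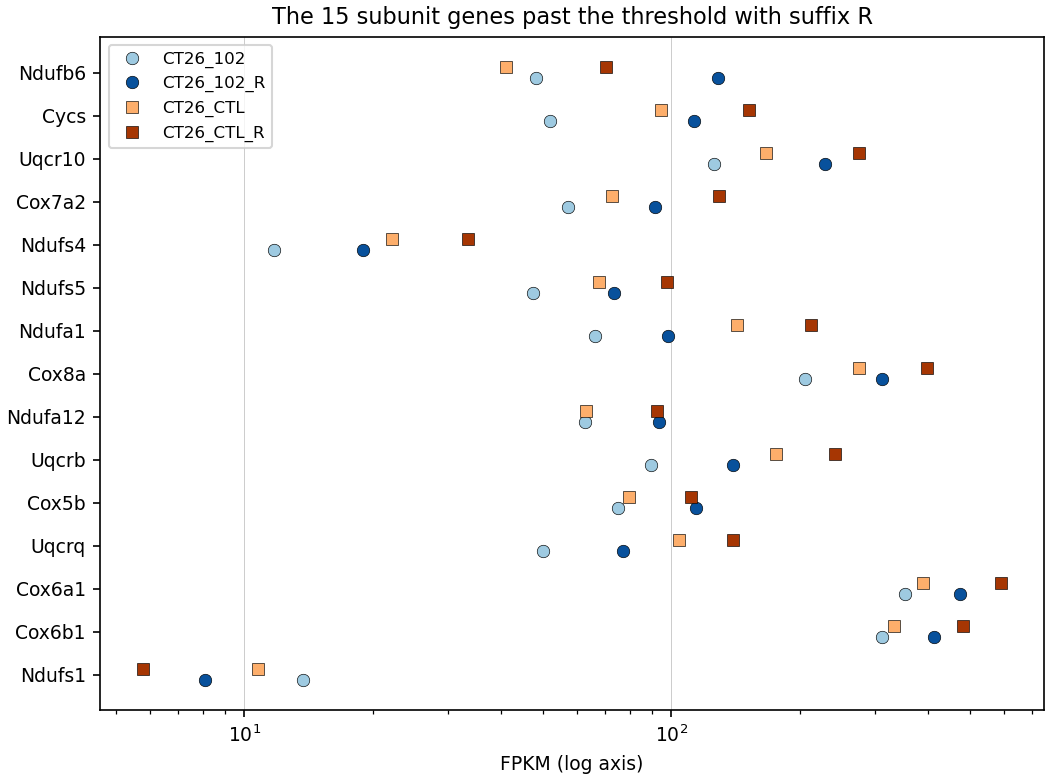
FPKM (log axis) of the 15 members past the threshold with suffix R; circles are stem CT26_102 and squares stem CT26_CTL, dark symbols carry suffix R, and genes are ordered by the fitted log2 difference. Dark symbols lie to the right of the light symbol of the same shape in 14 genes and to the left in Ndufs1.

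In complex V, the ATP synthase, 0 of 17 genes rose or fell, and 12 had a positive and 5 a negative difference. Of 11955 tested genes, 6021 had a positive and 5934 a negative difference. In the F1 head and central stalk, the large subunits were lower within both stems: Atp5a1 at 190.3, 157, 235 and 206 FPKM, Atp5b, and Atp5c1, the rotating gamma subunit, at 131, 104, 161 and 138. The small Atp5d and Atp5e of the same stalk were higher within both, at 59.8, 77.6, 86.1 and 106 and at 37.6, 46.5, 49.6 and 69.9. In the peripheral stalk, Atp5j was at 19.6, 25.7, 32.1 and 49.3, Atp5h at 71.7, 87.6, 103 and 108, Atp5o, the oligomycin-sensitivity protein, at 78.3, 94.6, 83.7 and 96.2 and Atp5f1 at 64.7, 60.4, 91.5 and 85.6. The small membrane subunits Atp5j2, Atp5k and Atp5l were higher with suffix R in both stems, at 37.3, 47.6, 46.2 and 59.9, at 70.2, 82.9, 75.4 and 99.1 and at 15.9, 19.3, 21.6 and 26.00. The summed FPKM of the complex was 1419, 1400, 1598 and 1647, a ratio of 0.986 with suffix R in stem CT26_102 and 1.03 in stem CT26_CTL.

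The c ring, through which protons pass, is built from 1 mature protein that Atp5g1, Atp5g2 and Atp5g3 all encode, with different targeting sequences. Their FPKM was 16.1, 19.4, 14.9 and 18.9, then 131, 103, 122 and 102.2, and 94.96, 103, 106 and 117. Atp5g2 was lower in both suffix R libraries and Atp5g1 higher in both, and none of the 3 passed. The share of Atp5g2 in their sum was 54.1%, 45.7%, 50.1% and 42.9%, lower with suffix R in both stems, while the sum stayed between 225 and 243 FPKM. Atpif1, the inhibitor of ATP hydrolysis by this enzyme, lies outside the symbol rule and was at 54.04, 56.98, 51.6 and 56.2. Usmg5, a small subunit of the membrane part that the file lists under its older symbol, was at 16.1, 28.4, 34.2 and 55.97 and rose (0.74 ± 0.12, adjusted p = 0.0328). Usmg5, Ndufab1 and Eef1b2 were singled out after their values were seen.

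Subunit size went along with these directions. The longest annotated coding sequence of the members corresponds to between 52 and 727 residues, with a median of 142. The 14 members that rose had a median of 105.5 residues and none exceeded 175. Of the 9 members with at least 400 residues, 6 were lower with suffix R, and of the other 71, 62 were higher. Of 11955 tested genes of any length, 5934 were lower and 6021 higher. Across the 80 members the log2 difference and the log2 coding length had a Pearson correlation of -0.57 and a Spearman correlation of -0.55, a description across genes that share the same 4 libraries. Across 10256 tested genes the Spearman correlation was -0.27. The median of all tested genes also varied with length and was 0.18 in the shortest quintile of coding lengths and -0.16 in the longest. In the shortest quintile, which held 61 members, the members had a median of 0.33 and the other genes 0.17. With the trend on coding length removed from each library, the members' median was 0.082 and 0 members passed, an alternative chosen after seeing the data. With the trend on exonic length removed it was 0.16 and 5 members rose and 1 fell, against 824 and 610 of 11949 tested genes. What produced the length trend was not tested.

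**Figure D4:**
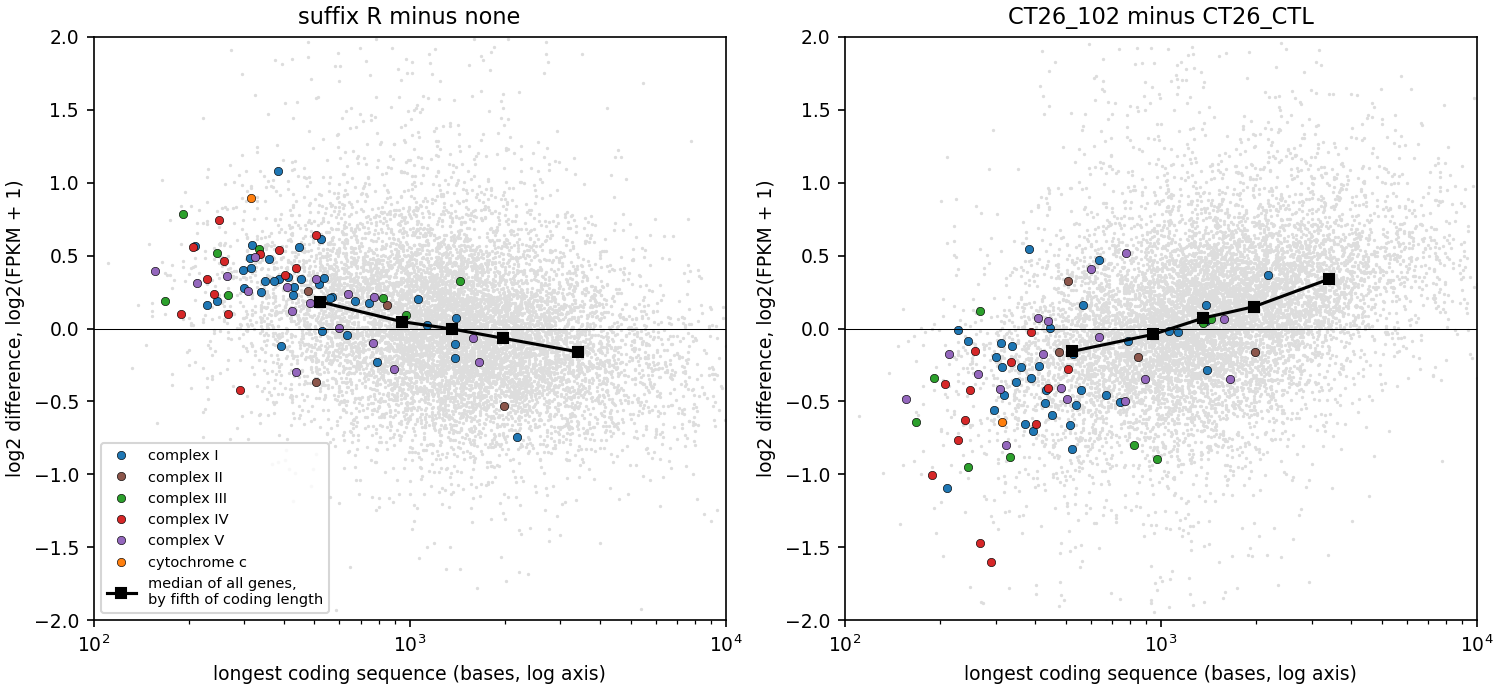
Log2 difference on the log2(FPKM + 1) scale against the longest annotated coding sequence (log axis) for suffix R (left) and for the stems (right); coloured points are members, grey points other tested genes, and black squares the median of all genes in each quintile of coding length. The black line runs from 0.18 to -0.16 on the left and from -0.16 to 0.34 on the right, and most members lie at its short end.

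The promoters of the members that moved were examined in the RefSeq promoter table for GRCm38.p6, which matched 67 of the 80 members. Only the 250 bases before the start were searched, on both strands. Shown here are members that rose and that differ in what they contain. Ndufb6 has a match to the ETS motif CCGGAAG, and Cycs has a cyclic AMP response element TGACGTCA. Ndufs5 has a match to the NRF1 motif, and Uqcr10 has none of these. Cox7a2 and Ndufs4, which rose more than Ndufs5 and are not shown, have none of them either, so the display is no sample of the members that rose. Capitals mark matches to the NRF1, ETS, YY1 and AP-1 motifs and to the cyclic AMP response element, 5′ to 3′. Other motifs searched, given below, are not marked: an SP1 match in Ndufb6 and a CCAAT box in Cycs and in Uqcr10.
Ndufb6 (chr4:40279422-40279671, minus strand): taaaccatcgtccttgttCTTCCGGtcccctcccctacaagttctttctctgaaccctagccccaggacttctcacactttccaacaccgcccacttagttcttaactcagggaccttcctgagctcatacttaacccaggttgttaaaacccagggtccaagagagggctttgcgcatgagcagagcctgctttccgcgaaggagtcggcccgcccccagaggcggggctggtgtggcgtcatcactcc
Cycs (chr6:50566570-50566819, minus strand): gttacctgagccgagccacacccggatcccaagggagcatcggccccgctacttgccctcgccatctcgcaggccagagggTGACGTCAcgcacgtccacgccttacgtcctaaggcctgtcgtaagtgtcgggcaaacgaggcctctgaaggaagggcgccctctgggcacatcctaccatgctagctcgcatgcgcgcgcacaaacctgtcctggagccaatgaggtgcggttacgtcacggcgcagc
Ndufs5 (chr4:123718187-123718436, minus strand): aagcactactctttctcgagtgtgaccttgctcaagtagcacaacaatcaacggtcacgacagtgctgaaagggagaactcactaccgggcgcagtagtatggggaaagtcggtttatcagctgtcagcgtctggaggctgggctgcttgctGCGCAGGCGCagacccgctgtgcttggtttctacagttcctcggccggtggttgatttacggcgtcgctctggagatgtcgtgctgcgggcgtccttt
Uqcr10 (chr11:4704345-4704594, minus strand): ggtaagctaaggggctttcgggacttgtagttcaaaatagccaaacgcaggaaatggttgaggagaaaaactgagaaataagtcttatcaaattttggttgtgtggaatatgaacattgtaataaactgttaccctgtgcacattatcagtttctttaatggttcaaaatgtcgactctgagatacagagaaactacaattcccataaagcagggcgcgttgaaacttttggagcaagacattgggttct

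Relative to the start, the matches begin at base -232 in Ndufb6, -169 in Cycs and -98 in Ndufs5. The NRF1 motif was in 13 of 67 member promoters (19.4%), against 10.2% of 8489 tested genes with a promoter and 3.74% of 32851 promoters in the table. The ETS motif was in 12 (17.9%, against 17.3% and 6.91%), the cyclic AMP response element in 5 (7.46%, against 3.15% and 1.55%) and the YY1 motif AAGATGGC in 2 (2.99%, against 2.54% and 1.56%). Of the other motifs searched, the SP1 motif GGGCGG was in 23 (34.3%, against 65.3% and 32.7%), the E-box CACGTG in 7 (10.4%, against 10.1% and 6.02%) and the CCAAT box in 30 (44.8%, against 41.6% and 33.8%). The AP-1 motif TGANTCA, of the family to which FOSL2 belongs, was in 6 (8.96%, against 5.42% and 6.75%). These were Atp5c1, Cox7c, Ndufa13, Ndufa5, Ndufa9 and Uqcrh. None of the 6 passed with suffix R, where 17.5% of all members rose and 1.25% fell. Of all tested genes 7.57% rose and 5.32% fell. Ndufs1, Uqcrb and Uqcrq, which passed, had no promoter to search. Whether calls differ with the AP-1 motif was not tested. The median log2 difference with suffix R was 0.31 in members with the NRF1 motif and 0.25 in those without, and 0.16 and 0.26 for the AP-1 motif. A match is a description of these letters in this window, not a bound site.

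Between the stems, 27 of 80 members were lower in CT26_102 than in CT26_CTL, 0 were higher and 53 did not pass (limma with both terms). The background share of all tested genes was 9.44% for lower and 12.5% for higher, against 33.8% and 0% of the members. The 27 include Cox6a2, which reached 1 FPKM only in the CT26_CTL libraries and so entered the test through the stem where it is high; 26 remain without it. The members' median log2 difference was -0.32, against 0.05 for all tested genes. It was -0.31 between the libraries without suffix and -0.32 between those with it. In both pairs 60 members were lower (34.0% of all tested genes) and 14 higher (43.4%), and in 38 members both CT26_102 libraries lay below both CT26_CTL libraries (20.9% of all tested genes). The comparison shares its 4 libraries with the suffix comparison. Without the suffix in the fit 0 members passed (smallest adjusted p among members 0.0795, with 34 genes or 0.284% of all passing). There 16 of 80 members had an unadjusted p under 0.05, all lower, against 2000 of 11955 tested genes in either direction. None passed without the expression filter, where 46 members and 5802 of 27670 genes had an unadjusted p under 0.05.

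**Figure D5:**
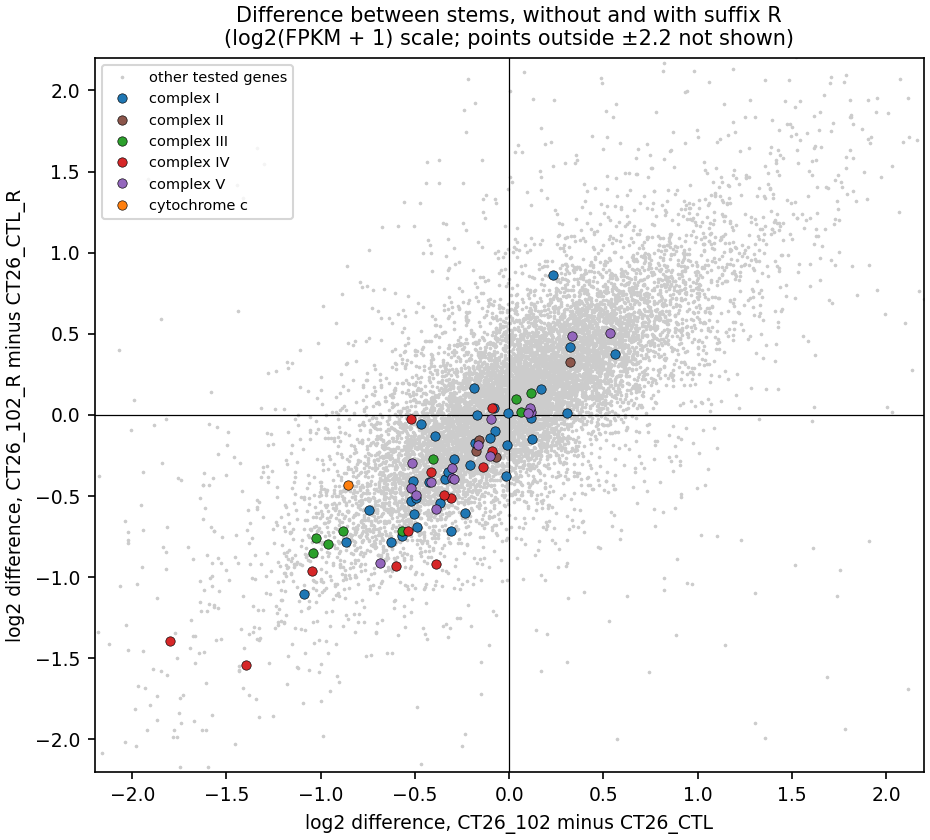
Log2 difference between stems (CT26_102 minus CT26_CTL) in the libraries without suffix (horizontal) and with suffix R (vertical), on the log2(FPKM + 1) scale, 1 library against 1; coloured points are members and grey points other tested genes. Of the 80 members 60 lie in the lower left quadrant, with Cox6a2 and Cox7a1 farthest out, while the grey cloud extends as far to the upper right.

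Complex III had the lowest median between the stems, -0.64, with 5 of 9 genes lower and 0 higher. Uqcrq was at 0.481 and 0.551 times its level in CT26_CTL (-0.95 ± 0.11, adjusted p = 0.0126), and Uqcrb differed by -0.88 ± 0.11 (adjusted p = 0.0123). Cyc1, the heme subunit that passes electrons to cytochrome c, differed by -0.89 ± 0.13 (adjusted p = 0.016), with both CT26_102 libraries under 50 FPKM and both CT26_CTL libraries above 85. The Rieske gene Uqcrfs1 differed by -0.80 ± 0.12 (adjusted p = 0.0172). Uqcr11 was at 79.4, 86.1, 118 and 142 FPKM (-0.64 ± 0.11, adjusted p = 0.0223). The core genes Uqcrc1 and Uqcrc2 and the hinge gene Uqcrh were instead level or slightly higher in CT26_102. Cytochrome c was lower too (-0.64 ± 0.14, adjusted p = 0.0377), although the stems overlapped.

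In complex IV 7 of 13 genes were lower, Cox6a2 among them, and 0 higher. Cox7c, at 0.479 and 0.509 times its CT26_CTL level, differed by -1.004 ± 0.11 (adjusted p = 0.0105), a gene that did not pass with the suffix. Cox6c differed by -0.76 ± 0.14 (adjusted p = 0.0255) and Cox7b by -0.63 ± 0.11 (adjusted p = 0.0235). Cox7a2l, which helps complex III join complex IV in supercomplexes, was at 64.9, 69.6, 85.3 and 133 FPKM (-0.66 ± 0.16, adjusted p = 0.0456), and CT26_CTL_R stood well above the other libraries. Cox8a differed by -0.38 ± 0.09 (adjusted p = 0.0427) with overlapping stems. Cox5b, Cox6a1 and Cox6b1, which rose with the suffix, did not pass between stems.

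In complex I 10 of 36 genes were lower, 9 of them accessory, and 0 higher. Ndufa1 showed the largest difference, at 0.467 and 0.463 times CT26_CTL (-1.10 ± 0.10, adjusted p = 0.00784). Ndufs4 differed by -0.83 ± 0.12 (adjusted p = 0.0178) and Ndufa6 by -0.70 ± 0.13 (adjusted p = 0.0249). Ndufa2, Ndufa8, Ndufb9, Ndufb11, Ndufs5 and Ndufs6 were also lower, with log2 differences from -0.46 to -0.66. The core gene that passed was Ndufv2, which holds an iron-sulfur cluster next to the flavin (-0.50 ± 0.11, adjusted p = 0.0403). The median of the core genes was 0.05 and that of the accessory genes -0.28. In complex V 4 of 17 were lower, namely Atp5j (-0.80 ± 0.13, adjusted p = 0.0204), Atp5d, Atp5e and Atp5f1, the last 3 with log2 differences from -0.49 to -0.48. In complex II 0 of 4 passed.

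Length also went along with the stem difference, in the opposite direction to the suffix. The median of all genes was -0.16 in the shortest quintile of coding lengths and 0.34 in the longest, and across the 80 members the Pearson correlation was 0.39. The Spearman correlation was 0.37 across the members and also 0.37 across 10256 tested genes. In the shortest quintile the members' median was -0.38 and that of the other genes -0.15. With the coding length trend removed, the members' median was -0.10 and 10 members were lower, against 715 of 10256 tested genes. Mitochondrially encoded genes took up to 12.3% of all FPKM in stem CT26_102 and 9.37% and 9.09% in stem CT26_CTL. With each library rescaled to the same sum without those genes, the median of all tested genes moved by more than 0.1, to 0.18, and the members' median to -0.17, a distance of -0.35 against -0.38 before. In that fit 18 members were lower and 5 higher, against 768 and 2460 of 11955 tested genes. Of all genes past the threshold between the stems 57.0% were higher in CT26_102, 76.2% after this rescaling and 47.6% after median-of-ratios rescaling. Of the 27 members, 15 passed under each of the 7 other settings, and Cox6a2 under the 6 in which it was tested. These settings leave out the coding length trend, with which removed 10 of the 27 passed. They also leave out the fits without the suffix or the expression filter, where no member passed.

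Of the tissue-specific isoforms, Cox7a1 and Cox6a2, known from heart and skeletal muscle, were measured at low levels. Cox7a1 was at 1.72, 1.77, 6.16 and 7.05 FPKM, 0.279 and 0.251 times CT26_CTL (-1.47 ± 0.14, adjusted p = 0.00799). Cox6a2 was 0.161 and 0.193 times CT26_CTL, given as a description, since it was under 1 FPKM in both CT26_102 libraries and passed the filter only through the CT26_CTL libraries. From the estimated depth and exonic length, these values correspond to about 20, 23, 87 and 82 reads for Cox7a1 and about 13, 10, 101 and 49 for Cox6a2. Against their widely expressed partners they stayed minor: Cox7a1 was 3.01%, 1.93%, 8.46% and 5.44% of Cox7a2, and Cox6a2 0.257%, 0.134%, 1.45% and 0.559% of Cox6a1.

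The 6 genes left out by the minimum were Cox4i2, the hypoxia-responsive form of subunit IV, Cox6b2, Cox7b2, Cox8b, Cox8c and Ndufa4l2. Cox8b and Cox8c were listed at 0 in all 4 libraries, and Cox4i2 at 0, 0.07696, 0.105 and 0.157 FPKM against 139, 259, 200.4 and 264 for Cox4i1. Cox6b2 and Cox7b2 reached at most 0.200 and 0.0761 FPKM. Ndufa4l2, a hypoxia-induced paralog of Ndufa4, was at 0.8297, 3.54, 0.447 and 0.759, highest in CT26_102_R, against 95.8, 109, 101 and 117 for Ndufa4. Since only 1 library reached 1 FPKM, it was not tested.

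The other genes of the pathway were counted from lists of general knowledge. Beside each list stand the shares of all tested genes given above: with suffix R 7.57% rose and 5.32% fell, and between the stems 12.5% were higher and 9.44% lower. No list was tested against these shares. Of 22 measured assembly factors of complex IV, 3 rose with suffix R and 0 fell, with a median of 0.30: Cox19 at 4.001, 8.99, 9.18 and 15.03 FPKM, Cmc2 at 8.38, 13.4, 9.85 and 18.9 and the copper chaperone Cox11 at 4.18, 7.66, 5.76 and 10.1. Of 5 for complex III, 1 rose, Uqcc1 at 5.72, 8.93, 5.08 and 9.06, a call lost under 7 of 10 alternatives. None of 15 for complex I, 4 for complex II or 5 for complex V passed with suffix R. For example, Ndufaf5 was at 9.403, 8.01, 13.6 and 14.3, Sdhaf1 at 4.78, 9.54, 6.45 and 8.16 and Atpaf1 at 4.95, 5.05, 1.85 and 1.88. Between the stems, Uqcc2, an assembly factor of complex III, was lower in CT26_102 at 58.9, 68.7, 114 and 159.8 (-1.07 ± 0.12, adjusted p = 0.0108), as was the copper chaperone Cox17 at 5.19, 9.101, 12.1 and 16.9 (-0.95 ± 0.14, adjusted p = 0.0172), while Atpaf1 was higher (1.07 ± 0.14, adjusted p = 0.0137). Of the complex IV factors 5 were lower and 1 higher between the stems. Of the complex I factors 1 was lower, Ndufaf5, and 2 were higher, Acad9 and Nubpl. Bcs1l of the complex III factors was higher and Tmem242 of the complex V factors lower, and 0 of the complex II factors passed.

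Of 17 measured regulators of mitochondrial biogenesis, 1 rose and 2 fell with suffix R. Gabpb1, a partner subunit of GABP, rose (3.51, 6.02, 2.33 and 5.38 FPKM), and its paralog Gabpb2 fell (5.596, 3.12, 5.11 and 2.68), as did Tfb1m, a methyltransferase of the mitochondrial ribosome (3.92, 1.77, 3.35 and 1.91). Between the stems 2 passed as lower in CT26_102 and 0 as higher. Myc was at 29.9, 42.2, 49.8 and 64.6 (-0.66 ± 0.12, adjusted p = 0.0244). Ppargc1a, which encodes the coactivator PGC-1alpha, was at 0.459, 0.918, 1.43 and 3.04 and reached 1 FPKM only in the CT26_CTL libraries, so it entered the test through the stem where it is high and its values are a description. Nrf1 was at 1.702, 1.66, 2.504 and 1.77, Gabpa at 11.7, 10.8, 10.6 and 8.07, Yy1 at 16.2, 17.2, 12.8 and 12.3 and Tfam, which packages mitochondrial DNA, at 8.66, 9.94, 13.96 and 9.06, none past the threshold in either comparison.

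Matrix enzymes supply the chain with electrons. Of 18 genes of the tricarboxylic acid cycle and pyruvate dehydrogenase, 0 rose and 2 fell with suffix R, with a median of -0.16. These were Idh2, the NADP-dependent isocitrate dehydrogenase, at 66.4, 24.7, 51.9 and 27.8 FPKM (-1.13 ± 0.16, adjusted p = 0.0274) and Suclg2, a subunit of succinyl-CoA ligase, at 16.3, 8.37, 20.9 and 10.9 (-0.88 ± 0.13, adjusted p = 0.0272). These genes are longer, with a median coding length of 1359 bases against 426 for the members. Between the stems 1 was higher, Dlst at 9.04, 8.35, 4.67 and 3.55, and 3 were lower, among them Mdh2 at 154, 156, 239.6 and 246. Of 6 carrier and channel genes, Vdac1, the main channel of the outer membrane, fell with the suffix (141, 87.3, 135 and 93.3), and the adenine nucleotide carriers Slc25a4 and Slc25a5 were lower in CT26_102, at 122, 101, 173 and 160.4 and at 239.8, 195, 368 and 313. Of 10 genes of coenzyme Q synthesis none passed with the suffix, and Coq2 was lower between the stems at 13.5, 9.78, 24.3 and 13.5.

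The subunits encoded by mitochondrial DNA, partners of the members in complexes I, III, IV and V, were counted for comparison: 5 of 13 rose with suffix R, mt-Co1, mt-Co2, mt-Co3, mt-Nd3 and mt-Nd6, and 1 fell, mt-Nd4l. The calls of mt-Co1 (adjusted p = 0.0487) and mt-Co2 (adjusted p = 0.0441) were lost under 9 of 10 alternatives each, every rescaling included, and those of mt-Co3 and mt-Nd3 under 5. Between the stems 6 were higher in CT26_102 and 1, mt-Nd3, lower, against 0 and 27 of the 80 nuclear members. The stem calls of mt-Co1, mt-Cytb and mt-Nd3 were lost under 6 of 10 alternatives each, and the other stem calls under 2 or 3. After rescaling to the sum without mitochondrial genes, 5 nuclear members were higher and 18 lower, against 2460 and 768 of 11955 tested genes. mt-Atp6 was at 4911, 5405, 4108 and 883 FPKM, so CT26_CTL_R stood apart for that gene.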

How the data were processed

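RNA was measured in 4 libraries of CT26 cells with a SMARTer mRNA-Seq kit, per the labels' protocols. The authors deposited FPKM values per gene, in which reads are divided by gene length and library depth; the genome builds GRCm38 and mm10 are named, per the submitters' processing notes, and for the aligner, the quantifier and strand handling the sources used here give no name or setting. Of the deposited gene IDs, 55154 were found in GENCODE release M21, which gave positions, exonic and coding lengths. Depth was estimated as the value at which the largest share of low FPKM values came within 0.02 of a whole number of reads. That share was only 27.5% to 28.8%, and multiples of a depth also give whole numbers, so the search had an upper limit. The depths and the read numbers derived from them are therefore approximate.

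Genes with FPKM of at least 1 in at least 2 of the 4 libraries were tested on log2(FPKM + 1) with limma 3.58.1 in R 4.3.3, with both title stem and labelled group as terms, a mean-variance trend, and Benjamini-Hochberg adjustment over all tested genes (threshold 0.05). Fold changes on this scale understate the change of low genes. The fit has 1 residual degree of freedom, and an exact permutation test of 2 against 2 libraries cannot give a two-sided p below 0.333. The script was tested on simulated data, with differences larger than most of those called here, so that test is no check of calls of this size.

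The members and the gene lists were chosen with earlier results of these data known. Genes are named by this rule: up to 12 past the threshold per direction and comparison, the highest and lowest of each complex, cytochrome c, Cyc1, the Sdh genes, the isoform sets, Atpif1 and a few of each related list. 1 member is counted but not reported by name here. Further members were named after their values were seen, to describe each complex. Alternatives were other pseudocounts, filters, scalings and trends, length trends, the fit without its second term, and leaving out each library. Removing the coding length trend was chosen after seeing the data.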

Additional observations from a re-analysis of the deposited data

Results flagged for a closer look

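A few members differed in opposite directions in the matched pairs, and in none of these was the difference between the pairs tested. With suffix R, in stem CT26_102 and then in stem CT26_CTL, the log2 difference was 0.34 and -0.01 for Ndufc1 (0.35 apart), 0.23 and -0.04 for Cyc1 (0.27 apart), 0.08 and -0.07 for Atp5s (0.15 apart) and 0.08 and -0.04 for Ndufa9 (0.12 apart). It was -0.14 and 0.05 for Ndufs8 (the first minus the second is -0.18) and -0.02 and 0.03 for Uqcrc2 (-0.05).

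Between the stems, without suffix and then with suffix R, the log2 difference was -0.18 and 0.17 for Ndufc1 (-0.35), 0.12 and -0.15 for Ndufa10 (0.27), -0.09 and 0.04 for Cox5b (-0.13), -0.08 and 0.04 for Ndufa9 (-0.12) and -0.01 and 0.01 for Ndufa12 (-0.02). The value in parentheses is again the first minus the second. Each pair is 1 library against 1, so these values have no replicate check.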

How the results depend on the processing

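The stem and the suffix act as the pairing, or replicate block, of each other. Without that block, the fit called 0 members higher and 0 lower with suffix R (1 gene in all) and 0 members lower between the stems (34 genes in all). Without the filter on low values both comparisons called 0 members and 0 genes in all. Leaving out each library in turn, in that same fit, gave 0 members in either comparison, 2 to 11 genes in all with the suffix (6 without CT26_102, 3 without CT26_102_R) and 0 to 16 between the stems; the members' median, from the pair left whole, was 0.24 to 0.27 with the suffix and -0.32 to -0.31 between the stems. With suffix R, the members higher numbered 7 with rescaling to the sum without mitochondrial genes (756 of 11955 tested genes) and 4 without the mean-variance trend (671 of 11955). They numbered 5 with the exonic length trend removed (824 of 11949) and 0 with the coding length trend removed (365 of 10256). Without the mean-variance trend and with the exonic length trend removed, the share of members higher was not above that of all tested genes. The members lower numbered 2 with FPKM of at least 1 in all 4 libraries (849 of 10392 tested genes) and with upper-quartile rescaling (1011 of 11955). They also numbered 2 with rescaling to the sum without mitochondrial genes (1059 of 11955), and 0 with the coding length trend removed (183 of 10256). The members' median was 0.19 with upper-quartile rescaling, 0.16 with rescaling to the sum without mitochondrial genes, 0.16 with the exonic and 0.082 with the coding length trend removed, where 548 genes passed in all. Between the stems, the members lower numbered 10 with the coding length trend removed (1438 genes in all, 715 of 10256 lower). The members higher numbered 2 with the stricter filter (1311 of 10392 tested genes) and 5 with rescaling to the sum without mitochondrial genes (2460 of 11955). They numbered 2 with the exonic length trend removed (1098 of 11949). The members' median was -0.34 with a pseudocount of 0.1, -0.31 with the stricter filter, -0.39 with median-of-ratios rescaling, -0.17 with rescaling to the sum without mitochondrial genes, -0.25 with the exonic and -0.10 with the coding length trend removed. Cox8a reversed between the stems with the coding length trend removed, to 0.0032. The causes were not tested. The fit used for leaving out a library called 0 members with all 4 libraries too. Its 0 members therefore cannot show an effect of fewer libraries.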
